A study of Solanum lycopersicum with 6 samples.

Results

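The genes described here are 9 loci, of 35768 gene models measured, that make, regulate or fill the cuticle of the tomato fruit epidermis. They were picked out by a fixed list of locus identifiers, drawn up with earlier results of these data known: CER6, CD1, CD2, CYP86A69 (also called CD3), GPAT6, SHN3, a MIXTA-like gene, TTS1 and TTS2. RNA was taken from the shoulder pericarp, the part of the fruit wall next to the stalk, of Solanum lycopersicum cultivar Ailsa Craig at 30 DPA (days post anthesis). There were 3 libraries of wild type (WT) fruit and 3 of slgols2 knock-out fruit, whose mutation was made with CRISPR-Cas9; all plants shared the greenhouse regime and the stage. The labels do not say how many edited lines or plants stood behind the libraries, so p-values here reflect library-to-library spread, which could be purely technical. The edited gene is not one of the 9 loci and its level was not analysed here.

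The cuticle is the waterproof skin that the epidermis lays down on its outer face. Its frame is cutin, a polyester of hydroxylated fatty acids: a cytochrome P450 of the CYP86A family adds the terminal hydroxyl group, the acyltransferase GPAT6 joins the product to glycerol, and the secreted GDSL-family enzyme CD1 links the units into polymer outside the cell. Waxes fill and coat that frame. They include very-long-chain lipids, whose chains CER6 helps to elongate, and, in tomato fruit, the amyrin triterpenoids made by TTS1 and TTS2. Regulators of the SHINE, MIXTA and HD-ZIP IV families, here SHN3, the MIXTA-like gene and CD2, control cutin genes and the form of epidermal cells.

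Levels are FPKM, a fragment number scaled by gene length and by library depth. The steps between low values gave depths from 15593387 to 17941974 fragments per library and whole read numbers behind each level. Libraries were alike within WT by correlations of log2(FPKM + 1) over tested genes, which ran from 0.924 to 0.958. They differed in the share of summed FPKM held by the top gene. It was 13.1% in WT replicate 1 and 5.96% in WT replicate 2, against 2.18% to 2.94% in the other libraries. In slgols2, replicates 1 and 2 correlated at 0.957, but replicate 3 stood apart at 0.849 and 0.869 with them. Replicate 3 correlated at 0.878 to 0.903 with the WT libraries. That range overlapped those of replicate 1, at 0.858 to 0.888, and replicate 2, at 0.883 to 0.914. Results below are therefore given by library, and with and without slgols2 replicate 3 where it matters.

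The deposited table holds identifiers only, so the recalled names were set against the reference annotation. Of the 9 names, 7 were found there, all 7 on the chromosome given by the identifier and within 1.40 percentage points of the same place in its gene order. CYP86A69 and the MIXTA-like gene were not found under those names, so their pairing of identifier and name rests on the list alone. In the fruit wall 8 of the 9 loci were expressed at a mean of at least 1 FPKM, the level needed for testing. SHN3 (Solyc06g053240.3), an AP2-family activator of cutin genes, was listed at 0 in all 6 libraries.

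All 8 tested genes had a lower mean in slgols2 than in WT, with a median difference of -0.76 in log2(FPKM + 1), against 0.00128 over all 15695 genes tested. Mean FPKM in slgols2 was between 32.2% of the WT mean, for CYP86A69, and 84.4%, for CD2. None of the 8 passed the threshold of an adjusted p under 0.05 over all genes (limma, Benjamini-Hochberg), which 0.229% of tested genes passed. With limma-voom on the recovered reads 0 of the 8 passed. It called only 1 of all 15695 genes tested, so that 0 says little about these genes. At an unadjusted p under 0.05, 6 of the 8 were lower, where 6.72% of all tested genes were lower at that level. In 6 of the 8, every slgols2 library lay below every WT library, which was the case for 9.59% of tested genes. The pericarp was sequenced in bulk, so fewer epidermal cells and less RNA per epidermal cell cannot be told apart.

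**Figure D1:**
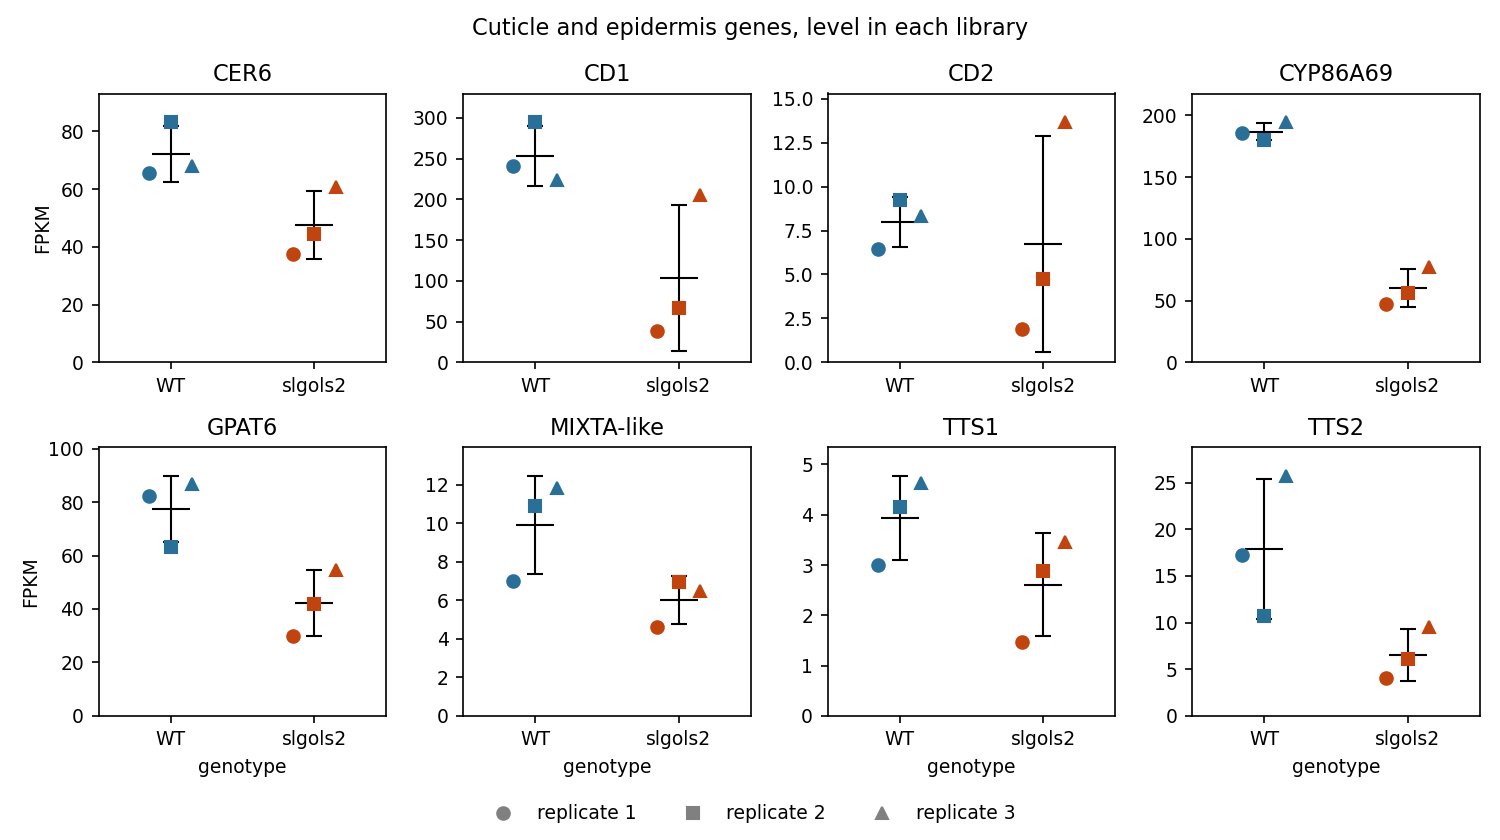
Level of each of the 8 tested genes in FPKM (vertical axes start at 0 and differ between panels) in the 3 WT and 3 slgols2 libraries; points are libraries, with replicates told apart by shape, and bars are the mean and SD of 3 libraries. CYP86A69 shows the widest gap, with slgols2 libraries at 47.5 to 76.9 FPKM and WT libraries at 180.4 to 194 FPKM, while the groups overlap for CD2 and TTS1.

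Among the genes for cutin monomers, CYP86A69 (Solyc08g081220.1), the fatty acid hydroxylase, showed the clearest difference. Its level was 185, 180.4 and 194 FPKM in WT replicates 1, 2 and 3, and 47.5, 56.0 and 76.9 FPKM in slgols2 replicates 1, 2 and 3. The groups lay far apart, and the highest slgols2 library was well under the lowest WT library. The WT mean was 187 ± 7.06 FPKM and the slgols2 mean 60.1 ± 15.1 FPKM (SD, n = 3 each), which is 3.11-fold lower. The difference of -1.65 (standard error 0.23) in log2(FPKM + 1) just missed the threshold (limma adjusted p = 0.0734). Its unadjusted p of 0.000267 in limma was at rank 57 among all tested genes. These levels rest on 1418 to 5382 reads per library, so counting error is small beside the spread between libraries. Without slgols2 replicate 3 the gene passed (limma adjusted p = 0.0215), where 1.78% of all tested genes passed.

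GPAT6 (Solyc09g014350.3), the glycerol acyltransferase of the next step, stood at 82.2, 63.4 and 86.7 FPKM in WT replicates 1 to 3. In slgols2 replicates 1 to 3 it stood at 30.0, 41.9 and 54.7 FPKM. The groups did not overlap, with WT replicate 2 and slgols2 replicate 3 the nearest to each other. The slgols2 mean was 54.5% of the WT mean (42.2 ± 12.4 against 77.4 ± 12.4 FPKM, SD, n = 3 each). The difference in log2(FPKM + 1) was -0.89 ± 0.27 (standard error; limma adjusted p = 0.298).

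CD1 (Solyc11g006250.2), the cutin synthase that builds the polymer, was the most abundant of the 8 in WT. Its WT levels were 241, 295 and 224 FPKM, and its slgols2 levels 37.8, 66.4 and 205 FPKM in replicates 1, 2 and 3. Replicates 1 and 2 of slgols2 were therefore at 14.9% and 26.2% of the WT mean, whereas replicate 3 was at 81.0% and only just below the lowest WT library. Such spread within slgols2 (103 ± 89.5 FPKM, SD, n = 3, against 253 ± 36.9 in WT) left a difference of -1.63 ± 0.59 (standard error) in log2(FPKM + 1) (limma adjusted p = 0.378). Without slgols2 replicate 3 the difference was -2.30 and passed (limma adjusted p = 0.0382). CD1 and CYP86A69 were the only 2 of the 8 genes to pass when that library was left out, where 1.78% of all tested genes passed.

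For waxes, CER6 (Solyc02g085870.3), the ketoacyl-CoA synthase of very-long-chain elongation, was measured at 65.5, 83.2 and 67.9 FPKM in WT. In slgols2 it was measured at 37.7, 44.3 and 60.7 FPKM. The groups did not overlap, but slgols2 replicate 3 lay close to WT replicate 1. Means were 72.2 ± 9.58 and 47.6 ± 11.8 FPKM (SD, n = 3 each), a difference of -0.61 ± 0.23 (standard error) in log2(FPKM + 1) (limma adjusted p = 0.395).

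The triterpenoid synthases TTS1 (Solyc12g006530.2) and TTS2 (Solyc12g006520.2), which cyclise oxidosqualene to amyrins of the fruit wax, carry adjacent identifiers on chromosome 12. TTS2 stood at 17.3, 10.7 and 25.7 FPKM in WT and at 4.04, 6.04 and 9.49 FPKM in slgols2. Its groups did not overlap, with a slgols2 mean of 36.5% of the WT mean. That difference was -1.31 ± 0.39 (standard error) in log2(FPKM + 1) (limma adjusted p = 0.293). TTS1 was lower throughout, at 3.00, 4.16 and 4.64 FPKM in WT and 1.48, 2.88 and 3.47 FPKM in slgols2. Here the groups overlapped, because slgols2 replicate 3 exceeded WT replicate 1 (difference -0.48 in log2(FPKM + 1), standard error 0.26, limma adjusted p = 0.533). Related copies can share reads, and how such reads were counted is not given in the sources used here, so the split between the pair is uncertain. Summed, the pair stood at 21.8 ± 7.87 FPKM in the WT libraries against 9.13 ± 3.72 FPKM in the slgols2 libraries (SD, n = 3 each), and the highest slgols2 sum, 13.0 FPKM, lay below the lowest WT sum, 14.8 FPKM.

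The regulators were expressed at lower levels than the cutin enzymes and CER6. CD2 (Solyc01g091630.3), an HD-ZIP IV factor needed for normal cutin, stood at 6.46, 9.25 and 8.31 FPKM in WT. In slgols2 replicates 1 to 3 it stood at 1.87, 4.74 and 13.7 FPKM, so that replicate 1 was the lowest and replicate 3 the highest of all 6 libraries. No difference between genotypes could be told from that spread (-0.52 in log2(FPKM + 1), 95% interval -1.89 to 0.85, limma adjusted p = 0.754), and without slgols2 replicate 1 the sign of the difference turned, to 0.0395. The MIXTA-like gene (Solyc02g088190.3), a MYB factor, was at 6.99, 10.9 and 11.8 FPKM in WT and 4.61, 6.93 and 6.49 FPKM in slgols2. Its groups were apart by a margin of less than 0.1 FPKM, between WT replicate 1 and slgols2 replicate 2. The difference was -0.62 ± 0.24 (standard error) in log2(FPKM + 1) (limma adjusted p = 0.398), on 191 to 433 reads per library.

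**Figure D2:**
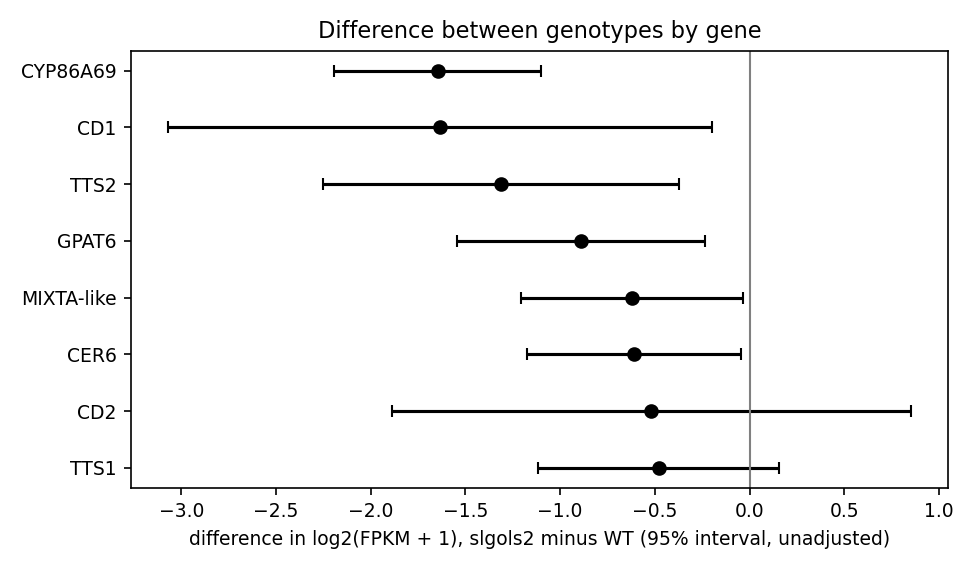
Difference in log2(FPKM + 1) between slgols2 and WT for each tested gene, with its unadjusted 95% interval from limma (3 libraries per group). All 8 points lie below 0; the intervals of CD2 and TTS1 include 0, and CYP86A69 at -1.65 has the interval farthest from it, -2.19 to -1.10.

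In WT the order of mean levels was CD1, CYP86A69, GPAT6, CER6, TTS2, MIXTA-like, CD2 and TTS1. GPAT6 and CER6 overlapped in their ranges over the 3 libraries, as did TTS2 and MIXTA-like, and MIXTA-like and CD2; the other neighbours in this order were apart. In slgols2 the order was CD1, CYP86A69, CER6, GPAT6, CD2, TTS2, MIXTA-like and TTS1. There the top 4 overlapped from each gene to the next, and below them a gap was seen as in WT, at 42.2 FPKM for GPAT6 against 6.76 FPKM for CD2. The lengths behind the FPKM values lay close to the span of the gene with its introns where the reference gives a span, within 10% for 5 of 6 genes, so long introns make these FPKM lower than transcript-based ones would be. TTS2 was the sixth, with a length of 5899 bases against a reference span of 9409 bases.

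The 3 slgols2 libraries differed among themselves in the same order for most genes. Replicate 1 was the lowest slgols2 library for all 8 genes, and replicate 3 the highest for 7 of them, the MIXTA-like gene being the exception. Relative to the WT mean, the median over the 8 genes was -1.48 in log2(FPKM + 1) in replicate 1, -0.77 in replicate 2 and -0.39 in replicate 3, whereas the WT libraries had medians of -0.09, 0.12 and 0.12. All 8 genes lay below the lowest WT library in slgols2 replicates 1 and 2, where 38.5% and 30.7% of all tested genes did. In replicate 3, 6 of the 8 did, against 30.3% of all tested genes.

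Heat shock genes varied between the same libraries. Of the 16 tested, 0 passed the threshold (lowest limma adjusted p = 0.243), which 0.229% of all tested genes passed. The median difference of the 16 was 2.39 in log2(FPKM + 1). In a list of 18 heat shock factor and chaperone loci, of which 17 were in the table and 1 of those was listed at 0 throughout, the summed level was 1468 to 2088 FPKM in WT. It was 28200 FPKM in slgols2 replicate 1, 18133 FPKM in replicate 2 and 1164 FPKM in replicate 3. Single loci did not all follow the sum. Of 16 tested, 13 had a higher mean in slgols2, where 49.9% of all tested genes had a lower one. In 7 of the 16, every slgols2 library, replicate 3 included, lay above every WT library, as for 9.60% of all tested genes. In replicate 3, where the sum lay below the WT range, CYP86A69 was at 41.2%, TTS2 at 53.0%, MIXTA-like at 65.6%, GPAT6 at 70.6%, CD1 at 81.0%, CER6 at 84.1%, TTS1 at 88.1% and CD2 at 171% of the WT mean. What part the heat shock levels had in the cuticle values was not tested. Seed loci, markers of another fruit tissue, summed to 9.93 to 48.1 FPKM over the WT libraries and to 1.37, 86.5 and 5.05 FPKM in slgols2 replicates 1 to 3, with 3 of the 10 loci listed at 0 throughout. Of 7 tested seed loci, 6 had a lower mean in slgols2, with a median of -0.32 in log2(FPKM + 1). The seed sums of slgols2 replicates 1 and 3 lay below every WT library and that of replicate 2 above them, and what part this had in the cuticle values was not tested. Of 3 vascular loci, only 1 reached a mean of 1 FPKM, and their sum ran from 27.0 to 68.9 FPKM in WT and from 19.6 to 56.6 FPKM in slgols2.

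**Figure D3:**
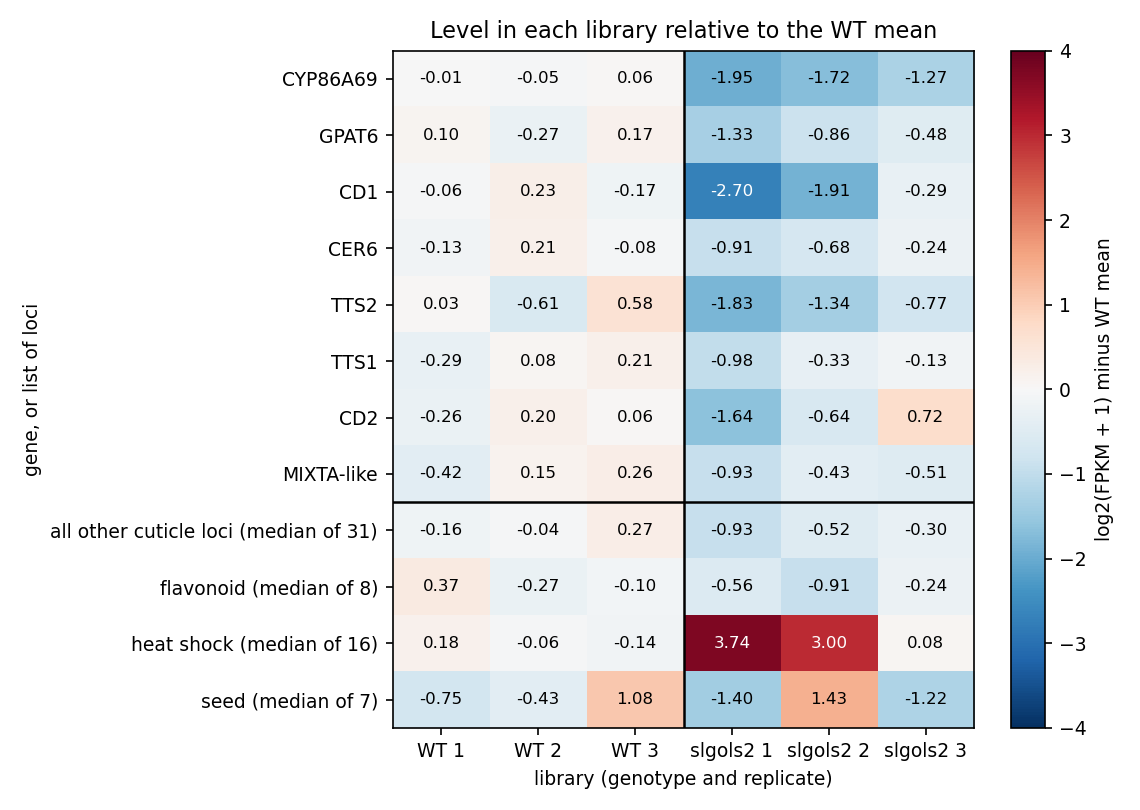
Each cell gives log2(FPKM + 1) of a gene, or the median over a list of loci, in a library minus its mean over the 3 WT libraries; columns are libraries, and colour runs from blue (below the WT mean) to red (above). Cuticle genes are lowest in slgols2 replicate 1, with CD1 at -2.70, and the heat shock median is high only in slgols2 replicates 1 and 2, at 3.74 and 3.00.

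Other loci of the cuticle were examined as lists of recalled identifiers, whose functions were not checked against an annotation. Pooled with them, and counted below as other cuticle loci, were 2 suberin loci and 3 triterpenoid and sterol loci. Of these 44 loci, 31 were tested. Of the 31, 29 had a lower mean in slgols2, where 49.9% of all tested genes did. None passed the threshold in either direction by limma, which 0.229% of all tested genes passed. None passed by limma-voom either, which called only 1 of all tested genes. At an unadjusted p under 0.05 (limma), 8 of the 31 were lower and 0 higher, where 6.72% of all tested genes were lower at that level. These were 5 of 8 cutin, 2 of 6 transport, 1 of 4 regulator, 0 of 10 wax and 0 of 3 triterpenoid and sterol loci. The median difference of the 31 was -0.52 in log2(FPKM + 1), and 9 of the 31 had every slgols2 library below every WT library. That number was 18 without slgols2 replicate 3 and 15 without WT replicate 1, where 24.2% and 12.9% of all tested genes were so separated, against 9.59% with all libraries.

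The cutin loci, which include further fatty acid hydroxylases, acyl-CoA synthetases and acyltransferases, had a lower mean in all 8 tested of 9. Their median difference was -0.78, and 5 of the 8 had every slgols2 library below every WT library, against 9.59% of all tested genes. Wax loci, for chain elongation, alkane formation and ester synthesis, were lower in mean in 10 of 10 tested of 17, with a median of -0.50 and 2 of 10 apart in this way. For transporters and lipid transfer proteins, 6 of 6 were lower in mean, with a median of -0.74 and 2 of 6 apart. Some of these 6 carry adjacent identifiers and, if related copies, may share reads. Their summed levels overlapped, at 2266 to 3279 FPKM in WT and 1278 to 2352 FPKM in slgols2. One transport locus, Solyc05g018510.3, singled out after its values were seen, was at 27.6, 29.0 and 37.1 FPKM in WT and 8.91, 12.7 and 9.996 FPKM in slgols2. Its slgols2 replicate 3 lay between the other two slgols2 libraries, and its difference of -1.48 ± 0.20 (standard error) in log2(FPKM + 1) just missed the threshold (limma adjusted p = 0.0723).

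Other regulators were mixed, with 3 of 4 tested of 7 lower in mean and 2 of the 7 listed at 0 in every library. Loci that supply or compete for the triterpenoid precursor had 2 of 3 lower in mean and a median of -0.02, beside -1.31 for TTS2 and -0.48 for TTS1. The 2 suberin loci, for the related polymer of bark and wounds, were below 1 FPKM in mean and were not tested. Flavonoid loci, whose products colour the tomato cuticle, had 7 of 8 lower in mean with a median of -0.54. Set against the WT mean, their medians were -0.56, -0.91 and -0.24 in slgols2 replicates 1 to 3, so that replicate 2, not replicate 1, was the lowest. In WT replicates 1 to 3 they were 0.37, -0.27 and -0.10, so the groups overlapped, with WT replicate 2 below slgols2 replicate 3.

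**Figure D4:**
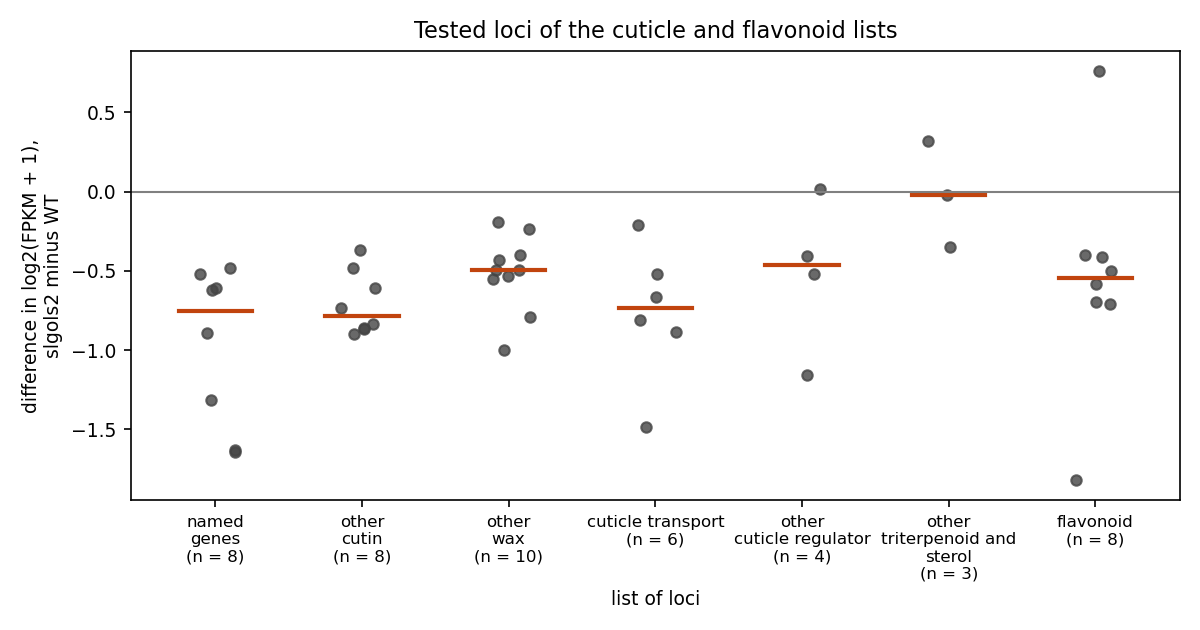
Difference in log2(FPKM + 1) between slgols2 and WT for every tested locus of the 8 named genes and of each list; points are loci, red bars are medians and n is the number tested. The cutin, wax and transport loci all lie below 0, with medians of -0.78, -0.50 and -0.74, while the 3 triterpenoid and sterol loci lie around 0.

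Among 8682 other genes with a mean of at least 5 FPKM, 59 followed the mean standardised profile of the 8 genes over the 6 libraries with a Pearson correlation above 0.95. The closest were Solyc03g080180.3, at 0.995, and Solyc07g007800.3, at 0.994. Solyc03g080180.3 stood at 6.06, 7.03 and 7.41 FPKM in WT and 2.70, 4.05 and 5.96 FPKM in slgols2. Solyc07g007800.3 stood at 14.4, 16.3 and 20.0 FPKM in WT and 6.02, 8.73 and 13.7 FPKM in slgols2. Both were picked for following this profile, so their shared order of the slgols2 libraries is no separate result. Neither passed the threshold (limma adjusted p = 0.409 and 0.374). The 6 points include the genotype contrast and come from the same libraries for every gene, so these correlations only describe.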

How the data were processed

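The authors deposited FPKM values, by the file headers, of 35768 gene models in 6 libraries. The submitters' processing notes name HISAT2 2.1.0 and DESeq 1.38.3; for counting, strand, build and annotation, the sources used here give nothing. Groups and replicate numbers came from the titles.

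Depths and read numbers were recovered from the FPKM steps: at the recovered depth, 98.4% of 2718 low genes gave whole lengths within 0.01 bases, and all 15695 tested genes gave whole reads within 0.02 in every library. The recovery and the test were tested on simulated data.

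Genes reaching 1 FPKM in the mean of the 6 libraries entered limma 3.58.1 (R 4.3.3) on log2(FPKM + 1), genotype only, intensity trend, two-sided, Benjamini-Hochberg adjustment at 0.05 over all genes. Low genes appear less changed on this scale than in FPKM. Exact permutation tests, whose p is at least 0.10 for 3 against 3, were not used.

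The 9 loci, their names and the lists were recalled from the tomato literature and chosen with earlier results of these data known. The reference table (SLM_r2.1) holds none of the identifiers and served for names and gene order only. All 9 loci were to be described, other loci by counts unless they passed, and the 2 genes most alike in pattern. Alternatives covered pseudocount, filter, scaling, variance model, sample weights, replicate block, recovered reads and each library left out.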

Additional observations from a re-analysis of the deposited data

How the results depend on the processing

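The 8 genes were lower in slgols2 under each alternative in which they were fitted, except CD2, whose difference in log2(FPKM + 1) ran from -1.14 without slgols2 replicate 3 to 0.0395 without slgols2 replicate 1. The number of the 8 past the threshold was 0 in each alternative but 2: it was 5 with limma's sample quality weights, which gave slgols2 replicate 3 a weight of 0.173 and slgols2 replicates 1 and 2 weights of 0.809 and 4.83, so that replicate 2 counted most, and called 2028 of all genes (12.9%), and over the fits that leave out 1 library it ran from 0 to 2, the 2 being without slgols2 replicate 3. Adjusted p for CYP86A69 ran from 0.00476 with sample weights to 0.297 without WT replicate 1, and for CD1 from 0.0186 to 0.723. Among the other cuticle loci, 7 passed with sample weights and 1 without slgols2 replicate 3, where 12.9% and 1.78% of all tested genes passed. Counts with groups apart were chosen as a check after seeing the data. Over the libraries left out they ran from 9 to 18 for these loci and from 6 to 8 for the 8 genes. The share over all tested genes then ran from 12.1% to 24.2%. Its highest value came without slgols2 replicate 3, which also gave the 18 and the 8.

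Over all genes the number of calls, 36, became 20 with a pseudocount of 0.1, 22 with 5, 55 with no filter, 15 at a mean of at least 5 FPKM (where TTS1 was not fitted), 1 with limma-voom on recovered reads, and 7 to 279 with 1 library left out (279 without slgols2 replicate 3). With the replicate number as a block it was 1, and 0 of the 8 genes passed. The labels do not say whether replicate numbers pair the libraries. Deviations of same-numbered libraries from their group means correlated at -0.15, 0.089 and -0.165 for numbers 1, 2 and 3. With 3 libraries per group, these values cannot tell whether the libraries were paired. The cause of these shifts in the number of calls was not tested. Other scalings moved the median of all genes by at most 0.04. SHN3, listed at 0, allows no statement on a difference.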

Other observations

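Ratios between genes of the pathway were looked at after the single genes, and none was tested. CYP86A69 stood at 2.24 to 2.85 times the FPKM of GPAT6 in the WT libraries and at 1.34 to 1.58 times in the slgols2 libraries, including 1.41 in replicate 3. The groups of this ratio did not overlap, but how many gene pairs are separated in this way was not counted. CD1 stood at 1.15 to 1.63 times the FPKM of CYP86A69 in WT, and at 0.796, 1.19 and 2.67 times in slgols2 replicates 1, 2 and 3, so that the groups of this ratio overlapped. The ratio of TTS2 to TTS1 was 5.75, 2.57 and 5.54 in WT and 2.74, 2.1 and 2.74 in slgols2, with overlapping groups.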
